A study of Mus musculus with 4 samples.

Results

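The spinal mRNA of sham-operated, nerve-injured mice was compared between zeitgeber time (ZT) 10, late in the light phase, and ZT22, late in the dark phase. Zeitgeber time counts the hours of the light cycle from lights on at ZT0. The comparison rests on 1 array at each time point, which are 2 of the 4 arrays of the series. Both RNAs came from lumbar (L4-L5) slices of males of the outbred ICR stock on day 7 of partial ligation of the sciatic nerve (PSL), a model of neuropathic pain, and both groups of mice had a sham adrenalectomy (sham+PSL). The other 2 arrays held slices taken at the same times from mice with adrenalectomy and ligation (ADX+PSL), and their values are given beside those of sham+PSL for many of the genes named. Their time points are those of the sample titles. For Sgk1, Tnnc2, Xlr3b and Mfap5 the paper on these data prints ADX+PSL ratios in the opposite direction, and sham+PSL ratios in the same direction as here. Which order of the ADX+PSL time points is right was not tested, and each statement on that order rests on the titles. The number of mice behind each RNA and the side of the cord are not given in the sources used here. The members of the comparison are the probes whose signal was well above background at both times in sham+PSL, which are 25812 of 39429 probes (65.5%), and they carry 15961 of the 22228 genes on the array (71.8%).

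The question of the comparison is which transcripts of the injured cord differ between the times of day at which corticosterone, the glucocorticoid of rodents, is high and low in animals with intact adrenals. Corticosterone binds the glucocorticoid receptor, which acts on genes through a palindromic DNA element, and Sgk1, Fkbp5 and Tsc22d3 are textbook targets. In parallel, most cells hold a clock in which CLOCK and ARNTL (BMAL1) activate the Per, Cry, Nr1d and Dbp genes through E-box elements, and the products of these genes feed back on it. A lumbar slice holds neurons, astrocytes, oligodendrocytes and microglia, and it also holds vessels with blood, meninges and nerve roots, whose RNA is measured together with that of the cord.

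Each value is a level in arbitrary units on a linear scale, quantile-normalized by the authors over the 4 arrays, so that a level of 1 probe is comparable between arrays and not with the level of another probe. Levels of a pair are written as ZT10 against ZT22. A log2 ratio is the level at ZT10 over that at ZT22, and 1 gene is represented by its brightest probe. The spot error given with a ratio covers the measurement of the spots alone (median 0.20 on the log2 scale). There was no replicate array, so no test between time points was possible, and a difference includes those between mice and between slices. Genes are called higher or lower when the ratio reached 2-fold, with a Z-score of 2 or more in size for the probe counts. The median log2 ratio of all genes was 0.01 with an SD of 0.36, and RNA added to every sample as a control lay between -0.05 and 0.03 on the log2 scale on the 7 of 10 such sequences above background. Defining markers of neurons, astrocytes, oligodendrocytes, their precursors, microglia, endothelium, mural cells, ependyma and meningeal fibroblasts were well above background on both arrays.

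Of the 25812 probes, 221 (0.856%) passed both limits on the higher side at ZT10 and 294 (1.14%) on the lower side, and with normexp background correction these counts were 90 and 108. By gene, 121 of 15961 were at least 2-fold higher at ZT10 (0.758%) and 192 were at least 2-fold lower (1.2%), and 378 (2.37%) and 593 (3.72%) passed a 1.5-fold limit. Among all genes, 7562 (47.4%) had a log2 ratio below 0, which is the share to set beside the counts of a list. Only 27 genes were 4-fold higher and 39 were 4-fold lower. The spread depended on the level: the SD of the log2 ratio fell from 0.51 in the dimmest of 5 equal groups of genes to 0.21 in the brightest, and the dimmest group held 56 of the 121 higher and 112 of the 192 lower genes. Of the 27 higher genes with more than 1 measured probe, 18 had every probe above 0, and of 25 such lower genes 20 had every probe below 0.

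**Figure D1:**
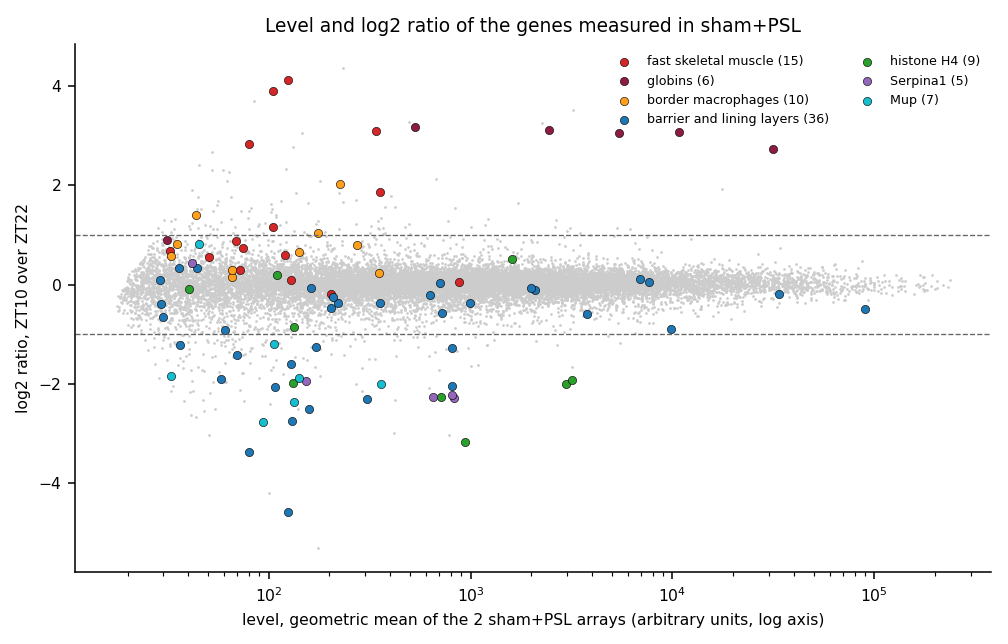
Each point is a gene measured at both times in sham+PSL, with its level (geometric mean of the 2 arrays, arbitrary units, log axis) on the x axis and its log2 ratio on the y axis; named gene groups are coloured and dashed lines mark 2-fold. The cloud narrows with the level, from an SD of 0.51 to 0.21, and 5 of the 6 globin genes stand high, most of them at bright levels where few other genes leave the cloud.

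The molecular clock was nearly level between ZT10 and ZT22 in most of its genes. With only these times sampled, a gene that peaks between them can have equal levels at both. A ratio near 0 thus does not show that a gene lacks a daily rhythm. Of 24 clock genes, 23 were measured, and 1 of them, Nr1d1, reached 2-fold, with a median log2 ratio of 0.05 over the list and 10 of 23 below 0. Nr1d1 encodes REV-ERBα, a repressor of Arntl. It had levels of 715 at ZT10 against 352 at ZT22 in sham+PSL, with 189 against 319 in ADX+PSL, a log2 ratio of 1.02 ± 0.20 (spot error) in sham+PSL against -0.75 in ADX+PSL. The highest of the 4 levels was thus in sham+PSL at ZT10 and the lowest in ADX+PSL at ZT10. Of the other targets of CLOCK and ARNTL, Ciart, Per1 and Dbp lay above 0 and Cry1 (-0.38) and Bhlhe41 (-0.44) below it, none past 2-fold. Bhlhe41 had 0.08 on its other probe. Ciart, a repressor of CLOCK and ARNTL, had levels of 199 against 133 in sham+PSL, with 61.7 against 85.4 in ADX+PSL (log2 ratios 0.58 and -0.47). Per1, a core repressor, had 0.50, with levels of 2977 against 2109, and 0.41 in ADX+PSL. Dbp, an output activator that binds D-box elements, had 0.49. Its levels were 22527 against 16046 in sham+PSL, and 6433 against 13263 in ADX+PSL, so its order of the time points was the opposite one in ADX+PSL (-1.04).

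The other clock genes lay closer to 0 or below it. Among activators and their regulators, Arntl had a log2 ratio of 0.06, Clock of -0.06, Rora of -0.06 and Rorb of -0.48. Among repressors, Per2 had 0.12, Per3 -0.29, Cry1 -0.38, Cry2 0.09, Nr1d2 0.32, Bhlhe40 -0.06 and Bhlhe41 -0.44. Among the output factors of the PAR family and their antagonist Nfil3, Tef had 0.05, Hlf -0.21 and Nfil3 -0.26, and among the kinases that set the turnover of clock proteins, Csnk1d had 0.11 and Csnk1e 0.22. Timeless had 0.03 on its brightest probe and 0.77 on another. The other probe of Bhlhe41 had 0.08, that of Rorb 0.11 and that of Rora 0.15, each opposite in sign to the brightest probe. Npas2, a paralog of Clock, was not well above background on both arrays. None of these genes reached 2-fold, and no spread between animals was measured against which to set them.

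Glucocorticoid-induced genes were on the higher side at ZT10, with some large members and a small median. All 29 genes of the list were measured, 4 were at least 2-fold higher and 1 at least 2-fold lower at ZT10, and the median log2 ratio was 0.29, against 0.01 for all genes and 0.27 for the same list in ADX+PSL. The list was put together from general knowledge with earlier results of these arrays known, so its direction is no independent evidence. Hif3a, a member of the hypoxia-inducible factor family, had levels of 348 at ZT10 against 50.6 at ZT22 in sham+PSL, with 145 against 75.2 in ADX+PSL, a log2 ratio of 2.78 ± 0.23 in sham+PSL. These are values of its brightest probe. A dimmer Hif3a probe had 19.19 in sham+PSL at ZT10 and was not called well above background at ZT22. That probe gave only a bound, at least 1.044-fold higher at ZT10. Plin4, a lipid droplet protein, had 277 against 89.3 in sham+PSL, with 636 against 81.0 in ADX+PSL (log2 ratios 1.63 and 2.97). Hif3a therefore had the larger ratio in sham+PSL and Plin4 in ADX+PSL.

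Sgk1, a serine/threonine kinase of the glucocorticoid and mineralocorticoid response, had levels of 3889 at ZT10 against 1748 at ZT22 in sham+PSL, with 1836 against 1453 in ADX+PSL. Its log2 ratio was 1.15 ± 0.20 in sham+PSL against 0.34 in ADX+PSL. The paper gives Sgk1 as lower at ZT10 in ADX+PSL, which is the opposite order. Sult1a1, a sulfotransferase, had 547 against 248 in sham+PSL, with 516 against 173 in ADX+PSL (log2 ratios 1.14 and 1.57). The member on the lower side was Angptl4, a secreted inhibitor of lipoprotein lipase. Its levels were 483 against 1189 in sham+PSL, with 980 against 715 in ADX+PSL, and its log2 ratio in sham+PSL was -1.30. Fkbp5, a chaperone of the receptor, had 0.33 in sham+PSL against 0.37 in ADX+PSL, and Tsc22d3 (GILZ), an anti-inflammatory mediator, had 0.23 and 0.27. Of the metallothioneins, Mt1 had 0.34 in sham+PSL against 1.03 in ADX+PSL, and Mt2 had 0.41 against 1.32. Hsd11b1, which regenerates active glucocorticoid within cells, had -0.78, and Nr3c1, the receptor itself, had -0.33. The list thus spread from -1.30 to 2.78 in sham+PSL.

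**Figure D2:**
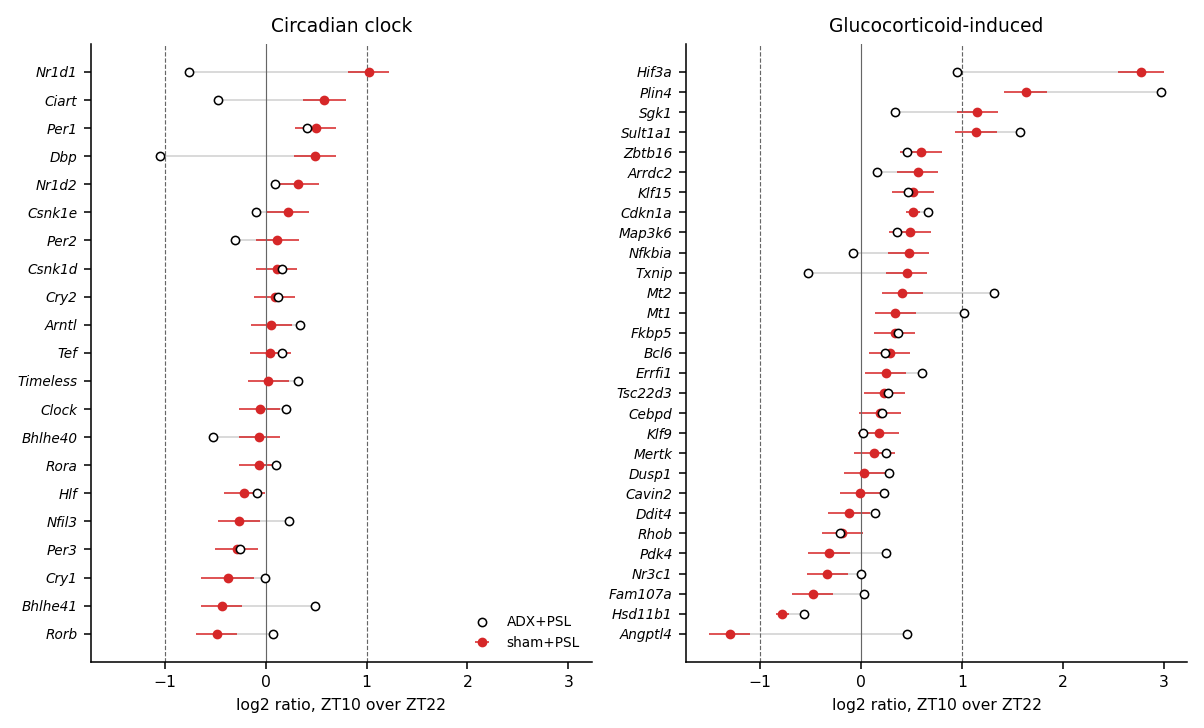
Log2 ratio (ZT10 over ZT22, x axis) of the clock genes reported here and of each glucocorticoid-induced gene (y axis) for sham+PSL and ADX+PSL, with bars for the spot error in sham+PSL. Nr1d1 is the clock gene past 2-fold (1.02), and Hif3a (2.78), Plin4 (1.63), Sgk1 (1.15) and Sult1a1 (1.14) are past it among the glucocorticoid-induced genes, while Angptl4 is at -1.30.

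The proximal promoters of these genes, taken as 250 bases before to 50 bases after the start in the RefSeq annotation of GRCm38.p6, were searched on both strands for 3 motifs: the E-box CACGTG, the D-box TTATGTAA and the palindromic glucocorticoid response element, which is AGAACA, then 3 bases of any kind, then TGTTCT. In the promoter of Sgk1 the elements found do not overlap. The windows of 30 bases below are shown because they carry the element named in the background for genes described above, with the element in capitals and the sequence written along the direction of transcription.
Sgk1, response element, chr10:21993694-21993723, + strand: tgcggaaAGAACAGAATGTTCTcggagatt
Sgk1, E-box, chr10:21993640-21993669, + strand: tcctCACGTGttcttggcatggctaggatt
Per1, E-box, chr11:69098771-69098800, + strand: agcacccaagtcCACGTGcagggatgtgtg
Ciart, E-box, chr3:95882327-95882356, - strand: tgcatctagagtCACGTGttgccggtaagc
Cry1, E-box, chr10:85185097-85185126, - strand: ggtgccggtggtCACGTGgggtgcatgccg
The response element with these letters was found in 3 of 32851 promoters (0.00913%), and Sgk1 was the only gene among those measured with a promoter that held it. The E-box was found in 2349 of 32851 promoters (7.15%) and in 11.1% of the 12473 measured genes with a promoter. It was found in 5 of 18 clock genes with a promoter (27.8%), namely Bhlhe41, Ciart, Cry1, Per1 and Tef, whose log2 ratios of -0.44, 0.58, -0.38, 0.50 and 0.05 lay on both sides of 0. It was found in 5 of 25 glucocorticoid-induced genes (20%), in 10.2% of 88 genes at least 2-fold higher and in 7.52% of 133 genes at least 2-fold lower at ZT10. The D-box was found in 308 promoters (0.938%), among them those of Per3 and Timeless. A match of letters describes a sequence and shows no binding.

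By cell type of origin, the lists whose medians lay farthest from 0 were those of red blood cells, fast skeletal muscle, border macrophages and microglia. Lists of neurons (median log2 ratio 0.05), inhibitory neurons (0.20), astrocytes (0.10) and endothelium (0.02) stayed near the median of all genes. In bulk tissue, fewer cells of a type and less RNA per cell cannot be told apart, and this holds for each list that follows. These lists were chosen with earlier results of the arrays known, so their directions are no independent evidence.

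**Figure D3:**
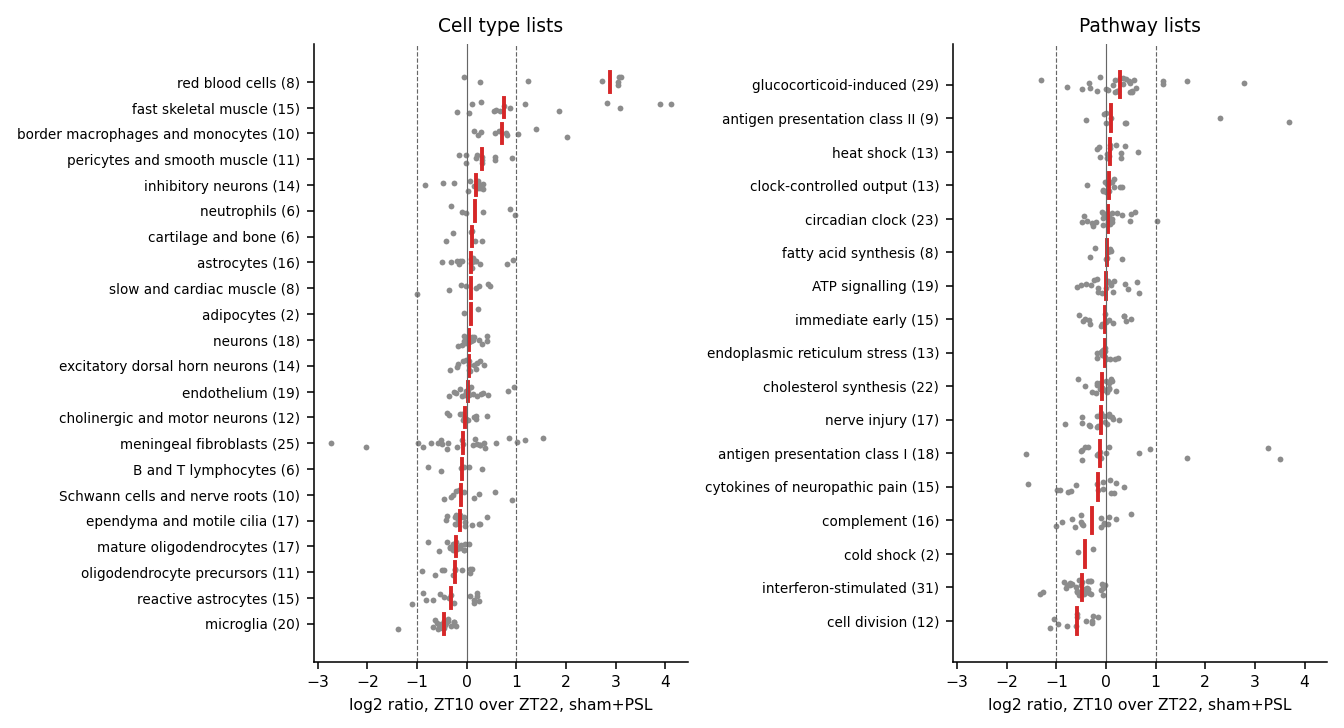
Log2 ratio (ZT10 over ZT22) in sham+PSL for each measured gene (grey points) of the cell type lists (left) and pathway lists (right), with the number of genes in brackets, the median of a list as a red bar and dashed lines at 2-fold. Red blood cells (median 2.89) and fast skeletal muscle (0.74) lie to the right, and cell division (-0.59), interferon-stimulated genes (-0.48) and microglia (-0.46) lie wholly to the left of 0 in sham+PSL.

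Haemoglobin and erythroid genes were higher at ZT10. Of 14 genes of the red blood cell list, 8 were measured and 6 were at least 2-fold higher at ZT10, with a median log2 ratio of 2.89 in sham+PSL against 0.06 in ADX+PSL. Hba-a1, an adult α-globin, had levels of 31430 at ZT10 against 3725 at ZT22 in sham+PSL, with 21626 against 20761 in ADX+PSL, a log2 ratio of 3.08 ± 0.20. Hbb-bt, an adult β-globin, had 15696 against 1890 in sham+PSL, with 11451 against 12679 in ADX+PSL. Alas2, the erythroid enzyme of haem synthesis, had 420 against 50.8 in sham+PSL, with 277 against 265 in ADX+PSL. The sham+PSL ZT22 array was the low one of the 4 for each of these genes, and the other 3 arrays lay within 2-fold of each other. Slc4a1, the anion exchanger of the red cell membrane, had a log2 ratio of 1.25, whereas Hemgn had 0.26 and Bpgm, the enzyme that makes 2,3-bisphosphoglycerate, had -0.05. The α-globin and β-globin genes have close paralogs, so their probes do not measure separate genes with certainty. The summed level of the list was 142793 at ZT10 and 25330 at ZT22 in sham+PSL and 102050 and 96459 in ADX+PSL.

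Part of the genes of fast skeletal muscle were higher at ZT10. Of 22 genes 15 were measured, 6 were at least 2-fold higher and 10 at least 1.5-fold higher at ZT10, and the median log2 ratio was 0.74 in sham+PSL against 0.11 in ADX+PSL. The median was 0.44 with normexp background correction and 0.044 among genes above the median level of all genes. Tnnc2, the calcium-binding troponin of fast fibres, had levels of 516 against 29.8 in sham+PSL, with 31.5 against 40.8 in ADX+PSL, a log2 ratio of 4.11 ± 0.27. Myl1, a fast myosin light chain, had 406 against 27.2 in sham+PSL, with 35 against 32.5 in ADX+PSL. Myh8, the perinatal myosin heavy chain, had 990 against 117 in sham+PSL, with 148 against 91.1 in ADX+PSL. For all 3 genes the sham+PSL ZT10 array stood above the other 3 arrays. Myh4, the heavy chain of the fastest fibres, was 811 at ZT10 and not called well above background on the other 3 arrays, so the ZT10 level was the higher by at least 44.1-fold in sham+PSL. Of the 4 defining muscle markers, 4 were well above background at ZT10 and 2 at ZT22. Ckm, muscle creatine kinase, reached 24.2 at ZT10 and was at least 1.32-fold higher than at ZT22. Tnnt1, the slow troponin T, was on the other side, with levels of 588 and 1178 and a log2 ratio of -1.0, and the list of slow and cardiac muscle had a median of 0.09. Among nerve root genes, Prx, periaxin of peripheral myelin, had a log2 ratio of 0.92, and the Schwann cell list had a median of -0.11. Their part in the result was not tested.

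For Tnnt3, the fast troponin T, the probes gave unlike values, with log2 ratios of 2.83 and 0.18. The sequences are shown because the probes share 27 bases, given in capitals, at opposite ends. The first lies at chr7:149698467-149698526 (mm9) and the second runs from 149698500 to 149700262, so that it spans a gap in the genome.
Tnnt3, probe with 2.83: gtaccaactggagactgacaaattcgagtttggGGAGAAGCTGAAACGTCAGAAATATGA
Tnnt3, probe with 0.18: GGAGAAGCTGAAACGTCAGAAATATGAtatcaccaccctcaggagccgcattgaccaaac
The first probe had levels of 213 at ZT10 and 29.9 at ZT22, and the second had 23.3 and 20.6, close to the lowest levels called well above background (14.9 and 18.4).

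Macrophages of the borders of the central nervous system, which line vessels and meninges, had their genes on the higher side at ZT10 in sham+PSL. All 10 measured genes were above 0, 3 at least 2-fold and 6 at least 1.5-fold, with a median log2 ratio of 0.72, against -0.32 in ADX+PSL. The median was 0.41 with normexp background correction. In ADX+PSL 7 of the 10 genes were below 0, while 2 were at least 2-fold higher at ZT10. Cbr2, a carbonyl reductase, had levels of 452 against 112 in sham+PSL, with 76.9 against 72.8 in ADX+PSL. Lyve1, a hyaluronan receptor, had 71.2 against 26.9 in sham+PSL, with 27.8 against 13.1 in ADX+PSL. The last of these levels was not called well above background. F13a1, a transglutaminase, had 250 and 122 in sham+PSL. Mrc1, the mannose receptor, had 177 against 113 in sham+PSL, with 45.5 against 59.2 in ADX+PSL (log2 ratio 0.65), and Pf4, a chemokine, had 0.79. For these 5 genes the sham+PSL ZT10 array was the highest of the 4. Cd163, another defining marker, was not well above background. The summed level of the list was 1922 against 1083 in sham+PSL, with 635 against 760 in ADX+PSL.

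Microglia, the resident macrophages of the parenchyma, went the other way. All 20 measured microglial genes were below 0, 1 of them at least 2-fold and 4 at least 1.5-fold lower at ZT10, with a median log2 ratio of -0.46 in sham+PSL. In ADX+PSL 16 of the 20 were below 0, with a median of -0.28. The homeostatic receptors had small ratios: Cx3cr1, the fractalkine receptor, had levels of 5633 and 8244 (-0.55), P2ry12, the ADP receptor, 1103 and 1461 (-0.41), and Tmem119 1862 and 2314 (-0.31). Aif1, which encodes Iba1, had 2767 and 3811 (-0.46), Tyrobp, the adaptor of Trem2, 3332 and 5297 (-0.67), and C1qc 2196 and 3402 (-0.63). Each was lower at ZT10 by more than 1 spot error, and the sham+PSL ZT22 array was the higher one in each case. Fcrls, a microglial scavenger receptor-like gene, was the member past 2-fold. Its levels were 127 against 331 in sham+PSL, with 78.6 against 301 in ADX+PSL. The summed level of the list was 140327 at ZT10 and 184512 at ZT22 in sham+PSL and 154634 and 165289 in ADX+PSL.

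Chemokine genes lay on both sides, with more of them past 2-fold on the lower side at ZT10. Of 21 measured chemokine genes, 4 were at least 2-fold lower and 1, Ccl28, was at least 2-fold higher. Ccl9 had levels of 149 against 1178 in sham+PSL, with 442 against 208 in ADX+PSL, a log2 ratio of -2.99 in sham+PSL against 1.09 in ADX+PSL. Ccl6 had 200 against 566 in sham+PSL, with 180 against 193 in ADX+PSL, and Ccl4 had 47.2 against 140 in sham+PSL, with 34.0 against 53.7 in ADX+PSL. Ccl12, a monocyte chemoattractant, had 302 against 657 in sham+PSL, with 140 against 214 in ADX+PSL. All 4 had their highest level of the 4 arrays in sham+PSL at ZT22. Among other myeloid genes, which did not share a direction, Itgax, the integrin CD11c of dendritic cells and activated microglia, had 94.8 against 338 in sham+PSL, with 96.8 against 110 in ADX+PSL. Clec7a, the β-glucan receptor dectin-1, had 89.1 and 248, with a log2 ratio of -1.48, and was picked after its value was seen. Over the 6 measured genes of the neutrophil list the median was 0.17, and its markers S100a8 and S100a9 had 0.97 and 0.88 in sham+PSL, against -1.19 and -1.31 in ADX+PSL. In the list of cytokines of neuropathic pain the median was -0.16 over 15 measured genes. Il6 had -0.98, Ccl3 -0.93 and Ccl2 -0.76. The levels of Il6 were 16.6 at ZT10, near the lowest called well above background, and 32.7 at ZT22. Il1b was well above background at ZT22 alone, at least 1.45-fold higher there, whereas Cxcl13, a B cell chemoattractant, was well above background at ZT10 alone, at least 2.72-fold higher there. Among 16 complement genes the median was -0.29, with 12 below 0. C3ar1, the C3a receptor, had -1.01, C2 had -0.88 and C4b -0.69, while the inhibitor Serping1 had 0.51.

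The measured interferon-stimulated genes were on the lower side at ZT10. Of 32 genes 31 were measured and 31 were below 0, where 47.4% of all genes were. The remaining one, Tgtp1, was well above background at ZT10 alone (23.2 against 13.7), at least 1.26-fold higher there. At least 2-fold lower were 2 of them and at least 1.5-fold lower 10, with a median log2 ratio of -0.48 in sham+PSL against 0.09 in ADX+PSL, where 12 were below 0. Ifi27l2a, an interferon-induced gene, had levels of 540 against 1360 in sham+PSL, with 878 against 523 in ADX+PSL. Oas2, a sensor of double-stranded RNA, had 17.4 against 41.9 in sham+PSL, with 50.9 against 24.1 in ADX+PSL, its lower levels being near the lowest called well above background. These 2 genes had their time points in the opposite order in ADX+PSL. Ifit3 had a log2 ratio of -0.84 in sham+PSL, Ifit1 of -0.81 and Usp18, a negative regulator of the pathway, of -0.78. The list was chosen with earlier results of the arrays known, so its counts are no independent evidence. In the family formed by Ifit and Ifi names, 13 of 16 measured genes were below 0 in sham+PSL. In that family 2 genes were at least 1.5-fold higher at ZT10, and the median was -0.35.

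Cell division genes were likewise on the lower side. All 12 measured genes were below 0, 2 at least 2-fold and 6 at least 1.5-fold lower at ZT10, with a median of -0.59 in sham+PSL against -0.38 in ADX+PSL. The median was -0.28 among genes above the median level of all genes. Mki67, the proliferation marker Ki-67, had levels of 146 against 318 in sham+PSL, with 168 against 266 in ADX+PSL, a log2 ratio of -1.13 ± 0.21. Nusap1, a spindle protein, had 21.2 against 43.7 in sham+PSL, with 14.5 against 31.9 in ADX+PSL. Both were higher at ZT22 in both operations, although Nusap1 is close to background. The cyclins Ccna2 and Ccnb1 had -0.97 and -0.79, and Top2a was well above background at ZT22 alone, at least 2.51-fold higher than at ZT10.

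Glial lists other than microglia moved little. Of 17 mature oligodendrocyte genes 16 were below 0, with a median of -0.22. Opalin, a myelin membrane protein, had the largest difference, with levels of 1545 and 2648 (-0.78). The list of oligodendrocyte precursors had a median of -0.24 and that of reactive astrocytes -0.32, in which Osmr, the oncostatin M receptor, was lower at ZT10, at 183 against 391 in sham+PSL, with 274 against 238 in ADX+PSL. In the astrocyte list Agt, angiotensinogen, had 3622 against 2062 in sham+PSL, with 3425 against 2061 in ADX+PSL (0.81 and 0.73), while the water channel Aqp4 had -0.50. Of the vessel genes, Mfsd2a, the lipid transporter of the blood-brain barrier, had 4047 against 2082 in sham+PSL, with 4603 against 2507 in ADX+PSL (0.96 and 0.88), and Acta2, smooth muscle actin, had 0.92. Agt and Mfsd2a were higher at ZT10 in both operations by similar ratios that did not reach 2-fold. The cold shock genes Rbm3 and Cirbp had -0.57 and -0.26 in sham+PSL, and the neuropeptide gene Gal, raised in injured sensory neurons, had 7316 against 13046 (-0.83) in sham+PSL, with 7707 against 12442 (-0.69) in ADX+PSL.

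The meninges gave differences in both directions within 1 tissue. Of 25 measured meningeal fibroblast genes, 3 were at least 2-fold higher and 2 at least 2-fold lower at ZT10, with a median of -0.07. Mfap4, a microfibril protein, had levels of 1425 against 487 in sham+PSL, with 138 against 122 in ADX+PSL. Lum, the proteoglycan lumican, had 484 against 214 in sham+PSL, with 86.2 against 146 in ADX+PSL, and Mfap5 had 527 against 261 in sham+PSL, with 37.6 against 28.4 in ADX+PSL. On the lower side at ZT10 were membrane transporters. Slc13a4, a sulfate transporter, had 399 against 1633 in sham+PSL, with 46.1 against 28.5 in ADX+PSL, and Slc22a6, the organic anion transporter OAT1, had 50.7 against 339 in sham+PSL, with 51.8 against 50.9 in ADX+PSL. Of the abundant matrix genes, Dcn had 6864 against 6121 in sham+PSL, with 2262 against 2580 in ADX+PSL, and Col1a2 had 4780 against 3963, with 1672 against 1810. Dcn and Col1a2 thus had close levels at both times in sham+PSL, above those in ADX+PSL, while the 5 genes past 2-fold were split by time point.

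A further list of 47 genes of barrier and lining layers (arachnoid barrier, mesothelium and pia) was chosen after the values were seen, so that its counts describe a choice and support nothing. Of these genes 36 were measured, 13 were at least 2-fold lower at ZT10 and 0 at least 2-fold higher, with a median of -0.53 in sham+PSL against 0.02 in ADX+PSL. Alkal2, a ligand of the receptor ALK, had levels of 25.8 against 611 in sham+PSL, with 19.8 against 31.8 in ADX+PSL. Aldh1a7, an aldehyde dehydrogenase, had 25 against 258 in sham+PSL, with 21.8 against 33.5 in ADX+PSL. Thbd, thrombomodulin, had 138 against 678 in sham+PSL, with 229 against 204 in ADX+PSL. For each of the 3 the sham+PSL ZT22 array stood above the other 3 arrays. Crabp2, a retinoic acid-binding protein, had 520 against 1266 in sham+PSL, and the enzyme of retinoic acid synthesis Aldh1a1 had 7255 and 13492 (-0.90). Msln, mesothelin, was 799 in sham+PSL at ZT22 and not called well above background on the other 3 arrays, at least 53.7-fold higher than at ZT10. In the same way Dapl1 was at least 43.8-fold, Tdo2 at least 7.96-fold and Cdh1, E-cadherin, at least 7.66-fold higher at ZT22. Prg4, the lubricating proteoglycan 4, was at least 27.8-fold higher at ZT22, with 414 there and 23.3 in ADX+PSL at ZT10.

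**Figure D4:**
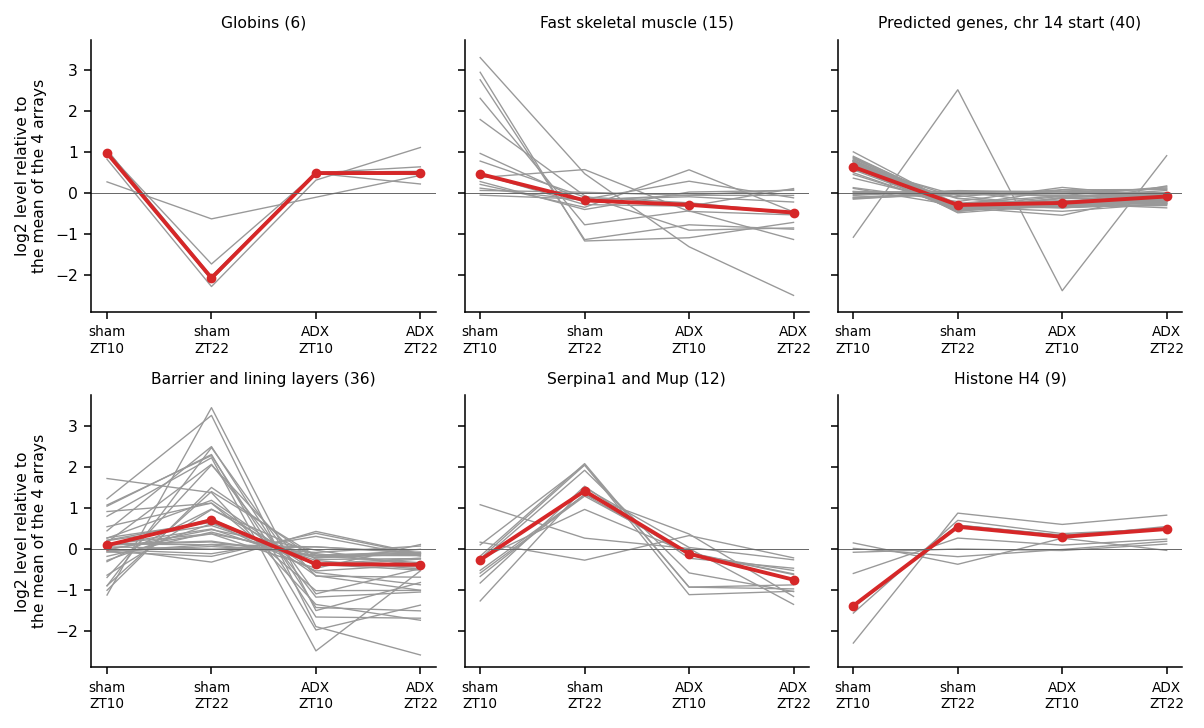
Log2 level of each gene or probe relative to its own mean over the 4 arrays (y axis) on each array (x axis, both time points of sham+PSL and of ADX+PSL), with 1 grey line for each gene or probe, the median in red and the number of lines in brackets, for 6 groups. The globin genes are lowest on the sham+PSL ZT22 array, most lining, Serpina1 and Mup genes are highest on it, and the H4 genes past 2-fold are lowest on the sham+PSL ZT10 array.

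Among gene families, histone H4 had a large difference that was not seen in the medians of the other histone families. Histone H4 is encoded by many genes that give the same protein, and most of their mRNAs are made in S phase and lack a poly(A) tail. Of 9 measured H4 genes 5 were at least 2-fold lower at ZT10, with a median of -1.93 in sham+PSL against -0.16 in ADX+PSL. The probes of 4 H4 genes on chromosome 13 (mm9) are shown because they share most of their bases, with a run of 11 bases common to all 4 in capitals.
H4c4, chr13:23673515-23673574: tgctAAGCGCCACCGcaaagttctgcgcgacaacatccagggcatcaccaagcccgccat
H4c12, chr13:21842279-21842338: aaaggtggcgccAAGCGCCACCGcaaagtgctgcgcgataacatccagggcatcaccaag
H4c11, chr13:21826989-21827048: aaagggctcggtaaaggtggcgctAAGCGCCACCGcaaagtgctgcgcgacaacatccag
H4c3, chr13:23790223-23790282: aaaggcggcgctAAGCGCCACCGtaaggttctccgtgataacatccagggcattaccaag
The probe of H4c4 matched that of H4c12 in 48 of 52 aligned bases (92.3%) and that of H4c11 in 38 of 40 (95%), so these probes can read each other's transcripts and are no separate measurements. H4c4 had levels of 312 against 2804 in sham+PSL, with 2316 against 2708 in ADX+PSL, a log2 ratio of -3.17 ± 0.20. H4c11 had 66.6 against 264 in sham+PSL, with 223 against 247 in ADX+PSL. H4c12 had a log2 ratio of -2.25 on the probe shown and of -1.93 on its brightest probe, with levels of 1630 and 6191 there. H4c3, whose probe matched that of H4c12 in 52 of 60 bases (86.7%), had 99.6 and 181 (-0.86). On other chromosomes, H4f16 (chromosome 6) had 326 against 1561 in sham+PSL, with 1249 against 1356 in ADX+PSL (log2 ratios -2.26 and -0.12), and H4c14 (chromosome 3) had 1475 against 5935, with 4999 against 5701 (-2.01 and -0.19). Their probes matched that of H4c4 in 27 of 59 (45.8%) and 20 of 37 (54.1%) aligned bases. A low match between probes does not show that they read separate transcripts, which was not tested. The sham+PSL ZT10 array was the low one of the 4 for each of these genes.

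The remaining 3 H4 genes lay near or above 0: H4c8 had 0.20, H4c17 -0.08 and H4c9 0.52 on its brightest probe, with its 3 probes from -0.05 to 0.52. The H2A genes had a median of -0.33 over 20 measured genes, 19 of them below 0, and H2ac4 was the member past 2-fold (-1.68). The medians were -0.14 for H2B, -0.07 for H3 and -0.25 for H1. These families were set side by side after the values were seen.

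The Serpina1 and Mup families, known from liver and plasma, had most of their measured genes on the lower side at ZT10, while the Serpina3 family did not. The 8 measured Serpina3 genes had a median of 0.06, with 3 below 0. Of 18 measured genes matched by name as apolipoproteins, 9 were above and 9 below 0, with a median of 0.01. This group also holds Apobec1 (-0.50), which encodes an RNA-editing enzyme and no apolipoprotein. Of the 5 measured Serpina1 genes, which encode α1-antitrypsin, 4 were at least 2-fold lower. Serpina1a had levels of 373 against 1817 in sham+PSL, with 231 against 240 in ADX+PSL, a log2 ratio of -2.28 on its brightest probe, and Serpina1e had 298 against 1421 in sham+PSL. The probes of Serpina1a and Serpina1c matched in 50 of 51 aligned bases (98%), so they are no separate measurements. Of 11 genes called Mup in the files, the major urinary proteins, 7 were measured and 6 were at least 2-fold lower. Mup18, which has another name in the files and is not in this count, had 138 against 608 in sham+PSL, with 234 against 156 in ADX+PSL. Mup1 had 36.1 against 246 in sham+PSL, with 89.2 against 72.5 in ADX+PSL, and Mup19 had 180 against 722 in sham+PSL, with 261 against 199 in ADX+PSL. For each of these genes the sham+PSL ZT22 array was the high one of the 4. Other genes of hepatocytes were dim: Fabp1 had 24.8 against 55.4 in sham+PSL, Ahsg 50.6 and 91.7, Kng1 42.1 and 86.8, and Alb, albumin, 18.5 and 28.3. Trf, transferrin, which oligodendrocytes also make, had 88862 and 90466. Hrg, another hepatic plasma protein, was on the other side, with 74.5 and 26.1. These single genes were picked after their values were seen.

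Some genes of the major histocompatibility complex and of the Xlr cluster, and probes of a region of chromosome 14, were higher at ZT10. Of 29 measured H2 genes, 6 were at least 2-fold higher and 1 at least 2-fold lower, with a median of 0.00. H2-D1, a classical class I gene, had levels of 10881 against 952 in sham+PSL, with 1166 against 4232 in ADX+PSL (log2 ratios 3.51 and -1.86). H2-Q7, a class Ib gene, had 7024 against 732 in sham+PSL, with 816 against 2811 in ADX+PSL, and H2-DMb1, a chaperone of class II loading, had 304 against 23.6 in sham+PSL, with 17.3 against 185 in ADX+PSL. In these 3 genes the sham+PSL ZT10 array was the highest of the 4, and the time points had the opposite order in ADX+PSL. H2-K1, the other classical class I gene of the list, had -0.11 on its brightest probe and 0.67 on another, with levels of 2600 and 1630 there. H2-Q1 had -1.61, with 15.7 at ZT10, close to the lowest level called well above background on that array (14.9).

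The Xlr genes form a cluster of close copies on chromosome X. Xlr4a had levels of 273 against 54.6 in sham+PSL, with 23.6 against 13.7 in ADX+PSL, with a log2 ratio of 2.32 on its brightest probe and of 1.78 on another, and Xlr3b had 1213 against 496 in sham+PSL, with 419 against 335 in ADX+PSL. Xlr5c, Xlr5a and Xlr5b were well above background in sham+PSL at ZT10 alone, at least 9.52-fold, 9.29-fold and 8.94-fold higher there. On chromosome 14, between 3000000 and 8400000 in mm9, 40 probes were measured, 18 of them named as predicted (Gm) genes. Of the 40 probes, 18 were at least 2-fold higher and 28 had log2 ratios between 0.6 and 1.4. On the other side, 8 lay below 0, and the lowest of them had -3.6, with levels of 17.3 against 209 in sham+PSL. The median of the 40 was 0.92 in sham+PSL against -0.08 in ADX+PSL. Of the 934 other probes of the chromosome, 10 were at least 2-fold higher, with a median of 0.00. Some of the 40 probes overlap on the same gene, as at Gm5797, so they are not all separate measurements. Gm3727, for example, had 9079 against 4159 in sham+PSL, with 4043 against 4640 in ADX+PSL. The sham+PSL ZT10 array was the highest of the 4 for 30 of the 40 probes. The window was chosen after the values were seen.

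The following genes were among those with the largest differences of all. Fggy, a carbohydrate kinase, had levels of 28.0 against 1111 in sham+PSL, with 164 against 1333 in ADX+PSL, with log2 ratios from -3.85 to -5.31 on its 4 probes in sham+PSL. Etnppl, an astrocytic enzyme that breaks down phosphoethanolamine, had 1540 against 158 in sham+PSL, with 2101 against 300.2 in ADX+PSL. Both had the same order of time points in both operations. Adck1 had 1059 against 51.5 in sham+PSL, with 1964 against 2142 in ADX+PSL, so that the sham+PSL ZT22 array was the low one. Slc6a4, the serotonin transporter, had 17.8 against 146 in sham+PSL, with 20.4 against 24.2 in ADX+PSL, so that the sham+PSL ZT22 array was the high one. Gdpd3 had 390 against 26.9 in sham+PSL, with 15.8 against 669 in ADX+PSL, with the opposite order of time points.

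How often a single array stood apart was counted over the genes past 2-fold, an array being apart where it differed at least 2-fold from each of the other 3 in the same direction and the other sham+PSL array lay within 2-fold of both ADX+PSL arrays, dim ADX+PSL signals included. Of the 121 genes higher at ZT10, the sham+PSL ZT10 array stood apart from the other 3 in 35 and the sham+PSL ZT22 array in 14. Of the 192 lower genes, the sham+PSL ZT22 array stood apart in 60 and the sham+PSL ZT10 array in 17. The counts describe the 4 arrays, and a difference between mice or slices and one between times of day cannot be told apart with 1 array a side.

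Most genes past 2-fold in sham+PSL were not past it in the same direction in ADX+PSL. Of all 15694 genes measured on both ADX+PSL arrays, 75 were at least 2-fold higher at ZT10 and 143 at least 2-fold lower. The shares that follow, in each direction, are larger than those over all genes. Of the 110 higher genes measured on all 4 arrays, 6 were at least 2-fold higher at ZT10 in ADX+PSL too and 8 at least 2-fold lower. Of the 149 lower genes measured on all 4 arrays, 18 were at least 2-fold lower in ADX+PSL too and 6 at least 2-fold higher. The 6 on the higher side were Etnppl, Plin4, Sult1a1, Cyp4f15, Gm10272 and Sult2b1. Cyp4f15, a fatty acid hydroxylase, had levels of 258 against 71.7 in sham+PSL, with 271 against 114 in ADX+PSL, and Sult2b1, a sterol sulfotransferase, had 417 against 132 in sham+PSL, with 417 against 120 in ADX+PSL. Among the 18 on the lower side were Fggy, the microglial Fcrls, the coagulation inhibitor Tfpi (-1.14 and -1.60) and Igfbp4, a binding protein of insulin-like growth factors (-1.14 and -1.0).

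A group of probes gave a level on 1 sham+PSL array alone, and only a lower bound could be formed for them. At ZT10 alone 1282 probes were well above background, 203 of them with a bound of at least 2-fold, and at ZT22 alone 574 probes, 237 of them with such a bound. For genes with no probe measured on both arrays, and beside those already named, the largest bounds on the ZT22 side included Ccr6, a chemokine receptor, which was at least 44.0-fold higher at ZT22 in sham+PSL, with 654 there and 524 and 1021 in ADX+PSL. Larger bounds were found for single probes of Ing4 (at least 162.5-fold) and Thumpd1 (at least 76.3-fold), genes that were also measured on another probe, with log2 ratios of 0.04 and -0.06 there. On the ZT10 side Adam34 was at least 6.65-fold, Znrf4 at least 6.23-fold and Snhg8, a small nucleolar RNA host gene, at least 5.95-fold higher. Bounds of 10-fold or more were found for 3 probes on the ZT10 side and 12 on the ZT22 side.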

How the data were processed

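Spinal RNA of each condition was hybridized by the authors to a 1-colour array of 60-base probes. The authors extracted spot intensities with Agilent Feature Extraction, version 9.5.1.1 in the submitters' processing notes and 10.7.1.1 in the file headers, and deposited them with errors and flags. The authors also deposited a table of linear intensities quantile-normalized over the 4 arrays, which gave the levels here. From it, log2 ratios of ZT10 to ZT22 were formed for probes that the flags call well above background at both times in sham+PSL. A probe was called at a ratio of 2 or more and a Z-score of 2 or more (0.5 and -2.0 for lower), Z being the distance of a log2 ratio from the mean of these probes in units of their SD, and a gene or list member at the ratio alone. Ratios against a dim array are bounds from its lowest signal well above background. The spot error came from the deposited error of each signal. Gene symbols were matched to the RefSeq annotation of GRCm38.p6, by accession for 26862 probes, by symbol for 3747 and by synonym for 623, while 8197 kept the name in the files. Probe coordinates are those of mm9.

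The genes named are the clock genes, up to 4 members with the largest ratio and the markers of each other list, up to 3 of each family, the 12 largest and 12 smallest ratios over consistent probes, the 8 largest bounds in each direction and Sgk1. Other genes are said to have been chosen after their values were seen, as were the genes of the barrier list, those of the counts by array and of the single H2, Mup and Serpina1 families. Many genes that this rule names are not reported here, although they count in their lists. The members and lists were chosen with earlier results of these data known. The number of arrays limits the precision, and p-values were not computed. Software was Python 3.11.15 (numpy 2.4.6, pandas 2.3.3 and, for figures, matplotlib 3.10.9) and, for alternatives, limma 3.58.1 under R 4.3.3. The steps were tested on simulated data. The alternatives were other normalizations and background corrections, other filters and limits, and the mean over a gene's probes.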

Additional observations from a re-analysis of the deposited data

Results flagged for a closer look

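The results below had opposite directions in sham+PSL and ADX+PSL, with a ratio of at least 2-fold each way for the single genes. With 1 array a condition the difference was not tested. The log2 ratios of the time points, first in sham+PSL and then in ADX+PSL, were 3.85 and -5.41 for Gdpd3, 3.69 and -3.42 for H2-DMb1, 3.51 and -1.86 for H2-D1, 3.26 and -1.78 for H2-Q7, 2.30 and -1.60 for Gm765 and 1.23 and -1.47 for Cox7b2. They were -2.99 and 1.09 for the chemokine Ccl9, -1.96 and 1.82 for Cyp2j7 and -1.26 and 1.08 for Oas2. The list of border macrophages and monocytes had medians of 0.72 and -0.32. Its 2 genes past 2-fold in ADX+PSL were nevertheless higher at ZT10.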

How the results depend on the processing

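No paired analysis was possible because each condition has 1 array, and for the same reason no replicate could be left out. The 221 probes higher and 294 lower at ZT10 became 90 and 108 with normexp background correction (offset 50), 85 and 99 when the mean signal had no background correction, 583 and 552 with a signal well above background required on 1 of the 2 arrays, 45 and 47 among probes above the median level, and 695 and 980 at a ratio of 1.5 without a Z-score. With the Z-score over all probes 134 were higher. The median log2 ratio of red blood cells moved from 2.89 to 2.37 and 2.31 with these background settings, in that order, that of fast skeletal muscle from 0.74 to 0.44 and 0.42, and that of border macrophages from 0.72 to 0.41 and 0.36. Cell division moved from -0.59 to -0.36 with the mean signal. With the filter on 1 array, fast skeletal muscle had 1.02 and the barrier and lining layers -0.91 instead of -0.53. Above the median level, the values were 0.044 for fast skeletal muscle, -0.28 for cell division, -0.28 for the barrier and lining layers, -0.32 for immediate early genes (-0.01 before), 0.17 for meningeal fibroblasts (-0.07 before) and -0.56 for slow and cardiac muscle (0.09 before), with fewer genes in each list. The cause was not tested in the other cases. Of 100 genes named with a difference of at least 2-fold, none changed sign under the 7 alternatives of normalization, background and probe choice, and 41 and 38 fell under 2-fold with the mean signal and normexp, against at most 4 under the rest. Without normalization between arrays the median of all genes shifted to 0.08. Dim genes limit the precision, since the SD of the log2 ratio was 0.51 in the dimmest group.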

Other observations

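Other genes outside the lists stood apart on 1 sham+PSL array. Smr2, a submaxillary gland gene, had levels of 133 against 20.8 in sham+PSL at ZT10 and ZT22 and of 18.5 and 11.6 in ADX+PSL. Ahcy, the hydrolase of S-adenosylhomocysteine, had 542 against 223 in sham+PSL, with 232 against 221 in ADX+PSL. Fn1, fibronectin, had 1790 against 5682 in sham+PSL, with 1817 against 1419 in ADX+PSL, and Lpar1, a receptor of lysophosphatidic acid, had 385 against 1273 in sham+PSL, with 418 against 351 in ADX+PSL. Dct, a melanocyte enzyme, had 95.6 against 300.3 in sham+PSL, with 222 against 256 in ADX+PSL. In addition, Cwc22, a splicing factor, stood apart on neither sham+PSL array and had 416 against 1064 in sham+PSL, with 590 against 2137 in ADX+PSL, lower at ZT10 in both. These genes were picked after their values were seen.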
